A study of Mus musculus with 89 samples.

Results

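Immunoglobulin and plasma cell genes were followed in neutrophil segments of mouse squamous cell carcinoma: the heavy chains Ighm and Igha, the light chain Igkc, the joining chain Jchain, the secretory factors Mzb1, Xbp1 and Derl3, the coactivator Pou2af1 and the B cell receptor subunits Cd79a and Cd79b. They were chosen by name, 10 genes of 19962 targets, and all 10 were on the panel. The study asked how neutrophils in different regions of these tumours respond to immunotherapy. It used GeoMx, in which oligonucleotide tags hybridise to RNA on a tissue section and light releases the tags of each chosen segment for sequencing. There were 89 segments on 3 slides, all of 1 annotated segment type, neutrophil, and the sources used here do not name the animals, their age, sex or strain, or the therapeutic agent. Frozen sections were stained for protein markers to draw the regions, so a segment is an area of tissue and can hold other cells.

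The annotation places the segments in 7 classes by slide and location. The naive slide, annotated as before treatment, held 15 stroma segments, 13 at the interface with the tumour and 14 within the tumour. After treatment, the acute slide held 9 stroma and 2 interface segments, and the relapse slide 14 stroma and 22 interface segments. The scan name of the naive slide carries the words UP HRass and that of the relapse slide the word DMBA, so the slides may differ in tumour model; the slide name of the relapse slide is "treated", the word that the scan name of the acute slide also carries. Each stage was on 1 slide, so stage, slide and any difference in model cannot be told apart. Tags were collected on 2 plates: plate G took the whole naive slide and 4 acute stroma segments, and plate H the whole relapse slide, 5 acute stroma and both acute interface segments. Segments share slides, and animals that are not named, so every p-value over segments given here is too small.

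B cells carry membrane immunoglobulin with the signalling pair Cd79a and Cd79b, and plasma cells, which arise from them, secrete it in large amounts. IgM, with the heavy chain of Ighm, is the first isotype a B cell makes, while IgA, with that of Igha, follows class switching and is typical of mucosal and other barrier tissues. The joining chain links IgM pentamers and IgA dimers, and Mzb1, Xbp1 and Derl3 serve folding, secretory capacity and disposal of misfolded protein in the endoplasmic reticulum. Immunoglobulin RNA is among the most abundant RNAs of a plasma cell, so a segment can gain many such tags from few cells. In these segments, fewer cells of a type and less RNA per cell cannot be told apart.

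By RefSeq (GRCm38.p6), Ighm and Igha lie on chromosome 12 and Igkc on chromosome 6, as constant regions. Of the 10 genes 5 had a promoter entry, a window from 250 bases before to 50 after the start. Of these, 3 are printed: Jchain, whose counts went with those of Igkc, and Derl3 and Pou2af1, which were mostly at or near the floor, with at most 12 and 17 counts in any segment. Capitals mark motif letters, found on either strand, and a match describes the sequence only. Jchain lies on the minus strand at chr5:88527848-88528147, Derl3 on the plus strand at chr10:75893148-75893447 and Pou2af1 on the plus strand at chr9:51213440-51213739.
Jchain: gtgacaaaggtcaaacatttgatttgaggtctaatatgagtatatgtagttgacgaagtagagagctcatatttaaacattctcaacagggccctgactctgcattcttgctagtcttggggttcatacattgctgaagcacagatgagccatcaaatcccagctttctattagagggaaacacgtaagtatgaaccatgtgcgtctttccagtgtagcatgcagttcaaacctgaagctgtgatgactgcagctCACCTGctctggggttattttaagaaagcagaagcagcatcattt
Derl3: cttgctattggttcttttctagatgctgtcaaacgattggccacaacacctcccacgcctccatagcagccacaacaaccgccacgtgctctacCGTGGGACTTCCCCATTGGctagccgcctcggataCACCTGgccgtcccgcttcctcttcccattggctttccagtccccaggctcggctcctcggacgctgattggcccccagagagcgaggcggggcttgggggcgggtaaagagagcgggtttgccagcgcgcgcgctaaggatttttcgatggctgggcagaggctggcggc
Pou2af1: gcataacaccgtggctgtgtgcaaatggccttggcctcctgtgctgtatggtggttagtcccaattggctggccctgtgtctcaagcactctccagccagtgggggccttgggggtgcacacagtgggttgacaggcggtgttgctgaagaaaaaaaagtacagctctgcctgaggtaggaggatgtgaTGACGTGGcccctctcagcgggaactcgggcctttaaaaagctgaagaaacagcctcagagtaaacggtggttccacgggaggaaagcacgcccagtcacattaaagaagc
In Jchain the capitals are the E-box letters CAGGTG read on the other strand (CACCTG), which start at base 256. In Derl3 they are the endoplasmic reticulum stress element at base 95, read on the other strand, and an E-box at base 130; the 2 do not overlap. In Pou2af1 they are the unfolded protein response element TGACGTGG (CCACGTCA on the other strand) at base 190. The stress element was found in 0.119% of 32851 promoter windows of the same length, the response element in 0.676% and the E-box in 20.2%. The E-box letters were also in the windows of Cd79a and Xbp1. The octamer ATGCAAAT (ATTTGCAT on the other strand) was in 1.74% of windows and in none of the 5.

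Counts per segment were recovered from the deposited normalised signal. The smallest recovered count was 1, which is the floor, and 69.1% of all values were at it. A gene was called above the limit of quantitation in a segment when its count passed the larger of 2 counts and a bound set by that segment's negative probes (between 2 and 17.3 counts). Depth, the sum of counts above the floor, ranged from 573 to 208675 per segment, with a median of 10736 in naive stroma, 18307 in naive interface, 64652 in acute stroma, 3964 in relapse stroma and 3570 in relapse interface. Among the 15 genes of the neutrophil list, Ly6g, a defining marker, was above the limit in 6 of 89 segments, S100a8 in 44 and S100a9 in 38. The relapse slide was the shallowest by median.

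Ighm was above the limit in 49 of 89 segments, Igkc in 34, Igha in 27 and Jchain in 26. The remaining members were sparser, with Xbp1 above it in 19 segments, Derl3, Pou2af1 and Cd79b in 10 each, Mzb1 in 7 and Cd79a in 3. Limma was run on the 5087 targets that passed the limit in 10% or more of the segments, and 8 of the 10 members passed this filter; Mzb1 and Cd79a did not. Differences are of mean log2(signal + 1), where the added 1 shrinks the change of low genes. The floor of 1 count was worth a median signal of 3.74 in both relapse classes. It was worth 1.87 in naive stroma and interface and 0.748 in acute stroma. Genes at the floor can therefore differ between classes in this measure.

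**Figure D1:**
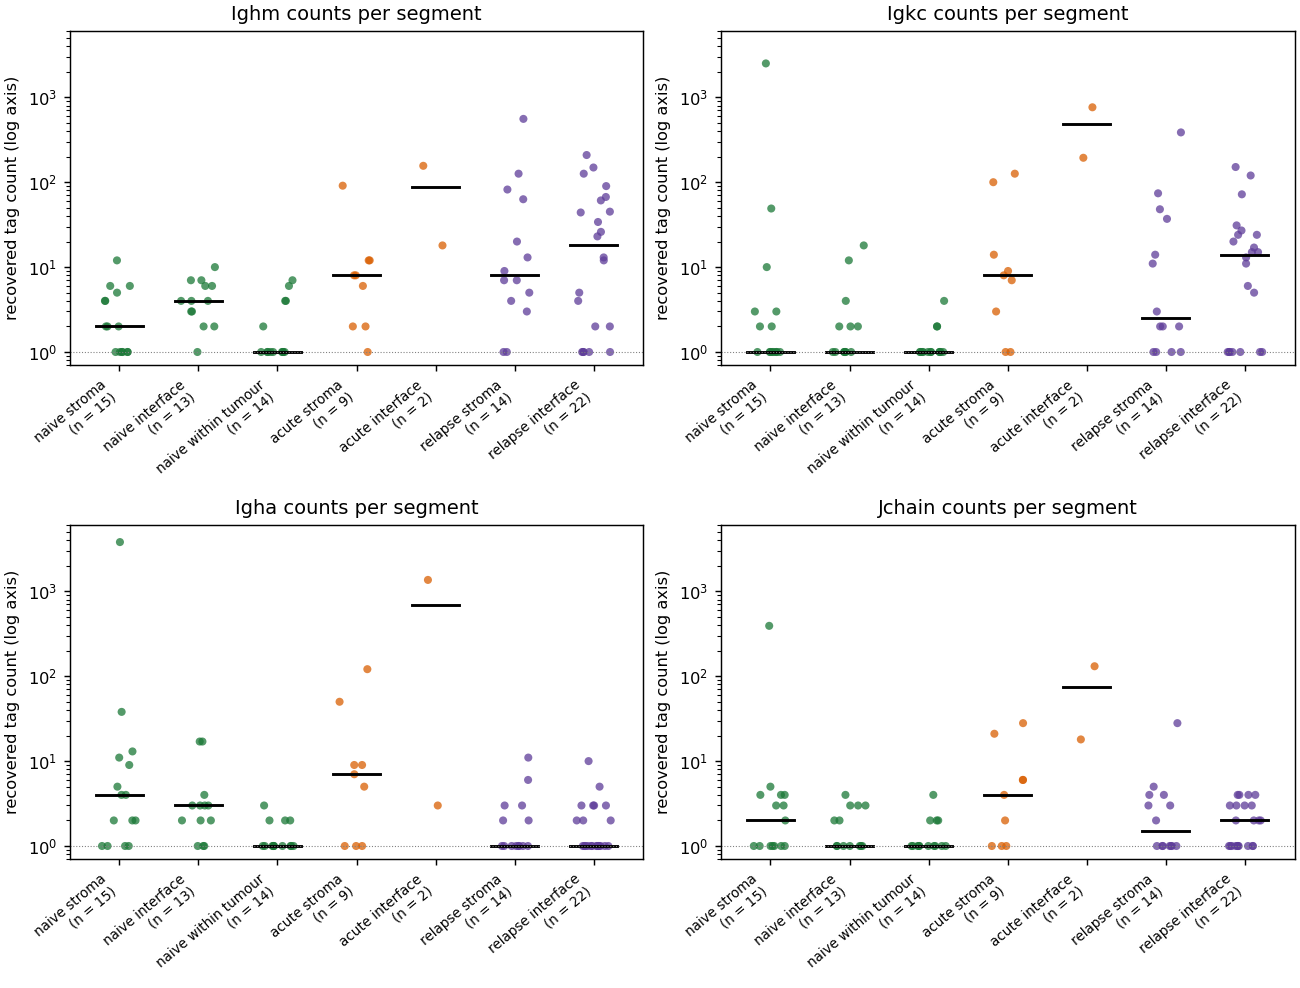
Recovered tag counts of Ighm, Igkc, Igha and Jchain per segment (log axis) in the 7 classes; each point is 1 segment, the black line the class median and the dotted line the floor of 1 count. Ighm reaches at most 12 counts in naive segments and 557 in relapse, while the highest Igha count, 3801, is in 1 naive stroma segment.

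Ighm, the heavy chain of IgM, was higher in relapse than in naive segments in stroma and at the interface. In naive stroma its counts ran from 1 to 12 with a median of 2, in naive interface from 1 to 10 with a median of 4, and within the tumour from 1 to 7 with a median of 1. Relapse stroma ran from 1 to 557 with a median of 8, and relapse interface from 1 to 209 with a median of 18. The ranges overlap at their low ends: 18 of 36 relapse segments, 6 in stroma and 12 at the interface, held more Ighm counts than the highest naive segment, although relapse segments were shallower. As a share of depth, 23 of 36 relapse segments lay above every naive segment. Pooled over segments, Ighm was 1.12 per 10000 counts on the naive slide, 4.10 on the acute slide and 94.9 on the relapse slide.

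In relapse minus naive stroma, Ighm rose by 2.99 on the log2 scale (SE 0.494, limma adjusted p = 1.05e-05). Normalised signal was 147 ± 277 (SD, n = 14) in relapse stroma and 4.87 ± 2.39 (SD, n = 15) in naive stroma. It was the only call among the 8 tested members, and it was above the limit in 12 of 14 relapse and 3 of 15 naive stroma segments. Over all 5087 targets limma called 1.4% in this comparison, 0.138% higher and 1.26% lower. The median difference of the 8 tested members, Ighm among them, was 0.05, and that of all targets 0.02. With plate as a covariate the difference was 2.94 and the call was lost (limma adjusted p = 0.247). Leaving out each tissue piece or either of the 2 segments with the most counts kept it between 2.55 and 3.77 (highest limma adjusted p = 0.00236). In 3 of these fits 2 members passed: Igha, lower, without naive piece 3, and Igkc, higher, without naive piece 4 or without the naive segment with the most Igha counts.

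At the interface, relapse minus naive gave 4 member calls, all higher, where limma called 9.77% of targets, 9.36% higher and 0.413% lower. Ighm rose by 2.63 (SE 0.465, limma adjusted p = 3.28e-05), and its signal was 140 ± 199 (SD, n = 22) against 6.97 ± 3.05 (SD, n = 13). It was above the limit in 15 of 22 relapse interface segments and in 10 of 13 naive ones. Median depth was 3570 in relapse and 18307 in naive interface, so these 2 rates are not directly comparable. Igkc, the kappa light chain that pairs with any heavy chain, rose by 2.86 (SE 0.52, limma adjusted p = 5.42e-05). Igkc counts ran from 1 to 18 with a median of 1 in naive interface and from 1 to 151 with a median of 14 in relapse interface. Its signal was 91.4 ± 148 (SD, n = 22) in relapse and 4.22 ± 3.61 (SD, n = 13) in naive interface. With plate as a covariate Ighm stood at 2.57 (limma adjusted p = 0.16) and Igkc at 2.17 (limma adjusted p = 0.298). Without naive piece 5, 1 of the 3 tissue pieces with naive interface segments, none of the 4 passed: Ighm was at 2.66 (limma adjusted p = 0.139) and Igkc at 2.91 (limma adjusted p = 0.144).

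Jchain and Xbp1 were the other calls at the interface. Jchain rose by 0.99 (SE 0.28, limma adjusted p = 0.0173) and Xbp1, the transcription factor that enlarges the secretory apparatus of plasma cells, by 0.71 (SE 0.215, limma adjusted p = 0.0248). Jchain reached 4 counts at most in either class, and Xbp1 7 counts in naive and 4 in relapse interface. Xbp1 was above the limit in 2 of 22 relapse and 2 of 13 naive interface segments, and Jchain in 8 of 22 and 3 of 13. One count is worth a normalised signal of 3.74 in the median relapse interface segment and 1.87 in the median naive one, so a gene at the floor has a higher signal in relapse. With counts above the floor scaled to the same total, Jchain was at 0.70 (limma adjusted p = 0.188) and Xbp1 at 0.40 (limma adjusted p = 0.352). With a random block for the tissue piece they were at 0.95 (limma adjusted p = 0.11) and 0.66 (limma adjusted p = 0.132), and without relapse piece 1 at 0.85 (limma adjusted p = 0.282) and 0.60 (limma adjusted p = 0.33).

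Keratinocyte genes moved with Ighm between the slides. Of the 10 tested genes of the 11-gene keratinocyte list, 4 rose in relapse minus naive stroma and 8 at the interface. Their summed share had a median of 71.6 per 10000 counts in relapse stroma (19.1 to 126) and 9.56 in naive stroma (4.78 to 53.9). At the interface the medians were 132 (24.4 to 370) and 7.27 (4.92 to 59.8). In stroma 7 of 8 fibroblast genes fell, from a median share of 209 per 10000 (15.9 to 360) in naive to 15.1 (2.69 to 460) in relapse. Among the 36 relapse segments, Spearman's rho of the Ighm share was 0.21 with the keratinocyte share and -0.09 with the fibroblast share. These values are a description over segments that share a slide and differ in depth. Their part in the Ighm difference was not tested.

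**Figure D2:**
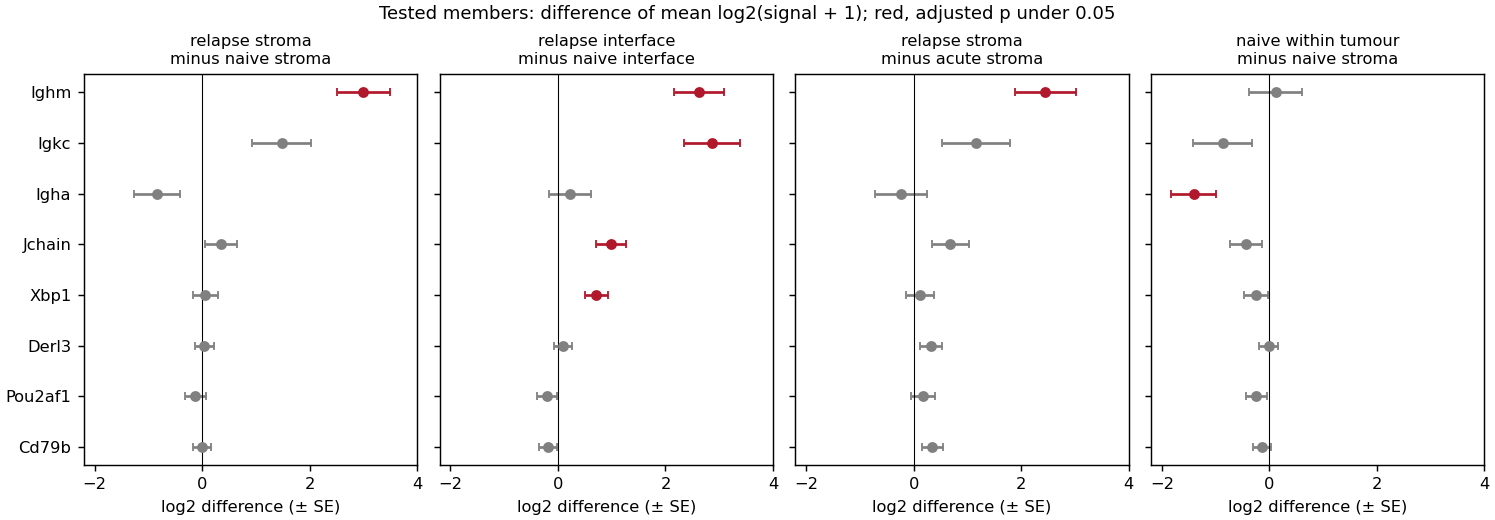
Difference of mean log2(signal + 1) with its SE for the 8 tested members in 4 comparisons; red points have a limma adjusted p under 0.05. Ighm is called in 3 of these comparisons, at 2.99, 2.63 and 2.45, and Igha in 1, at -1.40.

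On the acute slide the immunoglobulin genes were uneven between few segments. Ighm counts in acute stroma ran from 1 to 91 with a median of 8, Igkc from 1 to 126 with a median of 8 and Igha from 1 to 121 with a median of 7. Each of these genes was above the limit in 3 of 9 segments. Depth had a median of 64652 there, and the median Ighm share was 0.945 per 10000, against 14.8 in relapse stroma. The 2 acute interface segments held 18 and 156 counts of Ighm, and 763 and 194 of Igkc. Acute minus naive stroma gave 0 calls among the 8 members by limma, also 0 at an unadjusted p under 0.05, where limma called 0.0197% of targets. Ighm stood at 0.54 (SE 0.561) and Igha at -0.61 (SE 0.476) in that comparison.

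Relapse minus acute stroma, which like the earlier stroma comparison uses the relapse segments, gave 1 member call, Ighm at 2.45 (SE 0.568, limma adjusted p = 0.0151), against 1.53% of targets, 0.885% higher. Signal was 147 ± 277 (SD, n = 14) in relapse stroma and 9.29 ± 9.97 (SD, n = 9) in acute stroma. Within plate H, with 5 acute segments, the difference was 2.43 and did not pass (limma adjusted p = 0.0782), while Cd79b did, at 0.59 (SE 0.16, limma adjusted p = 0.0105), with 13 of 14 relapse stroma segments at the floor. Igkc was at 1.16 (SE 0.635) and Jchain at 0.68 (SE 0.342) in the same comparison. Of the 5 tested plasma cell genes 1 rose, Irf4, a transcription factor of plasma cell differentiation, at 0.84 (SE 0.208, limma adjusted p = 0.017). It was above the limit in 3 of 14 relapse and 0 of 9 acute stroma segments. That limit was 2 to 2.25 counts in relapse stroma and 2 to 17.3 in acute stroma. A floor of 1 count is worth a signal of 3.74 in the median relapse stroma segment and 0.748 in the median acute one.

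Location gave no call for Ighm on either slide. In relapse, interface minus stroma was 0.09 (SE 0.455) for Ighm and 0.49 (SE 0.508) for Igkc; limma called 0 of the 8 members, also 0 at an unadjusted p under 0.05, and 0% of targets. On the naive slide, interface minus stroma gave no member call (0 of 8 by limma; Igha, Jchain and Xbp1, 3 members, had an unadjusted p under 0.05), where limma called 11.1% of targets, 0.531% higher and 10.5% lower. Igha was at -1.05 (SE 0.428, limma adjusted p = 0.0969) and Jchain at -0.77 (SE 0.303, limma adjusted p = 0.0843). Without naive piece 3 both passed, so that 2 members were called. Whether the location difference itself changed from naive to relapse was tested as an interaction, which gave 0 member calls by limma, 1 at an unadjusted p under 0.05 (Xbp1 at 0.65, SE 0.313), against 4.19% of targets, 4.07% higher and 0.118% lower; without naive piece 3 it gave 1, Igha.

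Igha, the heavy chain of IgA, was the member with a location call. Within the naive tumour it fell by 1.40 relative to stroma (SE 0.42, limma adjusted p = 0.0328), the only call of 8, where limma called 3.66% of targets, 3.44% lower. Igha counts ran from 1 to 3 within the tumour and from 1 to 3801 in stroma, and it was above the limit in 1 of 14 and 6 of 15 segments. Without the stroma segment with 3801 counts the difference was -0.86 (limma adjusted p = 0.244). The call was also lost without naive piece 1, 2, 4 or 5, at -0.85, -1.41, -1.04 and -1.61, and it was larger without naive piece 3, at -2.30 (limma adjusted p = 0.00054). Fibroblast markers, with a median share of 5.62 per 10000 within the tumour (0 to 41.3) and 209 in stroma, moved with it, and their part was not tested.

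The balance of the isotypes lay further towards Ighm on the relapse slide. Because each gene has its own probe, Ighm and Igha are compared only through their count ratio across segments, over those with either gene above the limit. In naive stroma the median log2 ratio of Ighm to Igha was -1.73 (-9.31 to 1.58) over 8 segments. Naive interface had a median of 0.42 (-1.28 to 2.58) over 11 segments, and naive segments within the tumour 1.70 (0.42 to 2) over 4. Relapse stroma had a median of 2.56 (1.58 to 5.98) over 12 segments and relapse interface 4.08 (-0.58 to 6.98) over 16. Of these 28 relapse segments, 18 had a ratio above the highest of the 23 naive ones, 2.58. Most relapse segments entered through Ighm alone, and Igha was at the floor count of 1 in 13 of the 28, so that their ratios rest on a probe not above background. With both genes above the limit the median was 2.94 in relapse stroma (4 segments), 2.77 in relapse interface (5 segments) and 0 in naive interface (5 segments), and 1 segment each was left in naive stroma, at -1.46, and within the tumour, at 0.42.

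Acute segments were spread widely. The median of 5 acute stroma segments was 0.86 (-3.33 to 3), and the 2 interface segments stood at -6.24 and 5.70, near the extremes of all segments. Igha itself stayed low on the relapse slide, with a highest count of 11 and a pooled share of 2.40 per 10000, against 45.1 on the naive slide, where 96.7% of the Igha counts above the floor came from 1 segment. In the fit, Igha in relapse minus naive was -0.84 (SE 0.42, limma adjusted p = 0.436) in stroma and 0.22 (SE 0.395, limma adjusted p = 0.727) at the interface. The shift of the ratio between naive and relapse came with a rise of Ighm whose call was lost with plate as a covariate. Igha had no call in the main fit, but in stroma its unadjusted limma p was 0.0466. Without naive piece 3 it was called lower there, at -1.74 (limma adjusted p = 0.0498). How far each gene carried the shift was not tested.

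**Figure D3:**
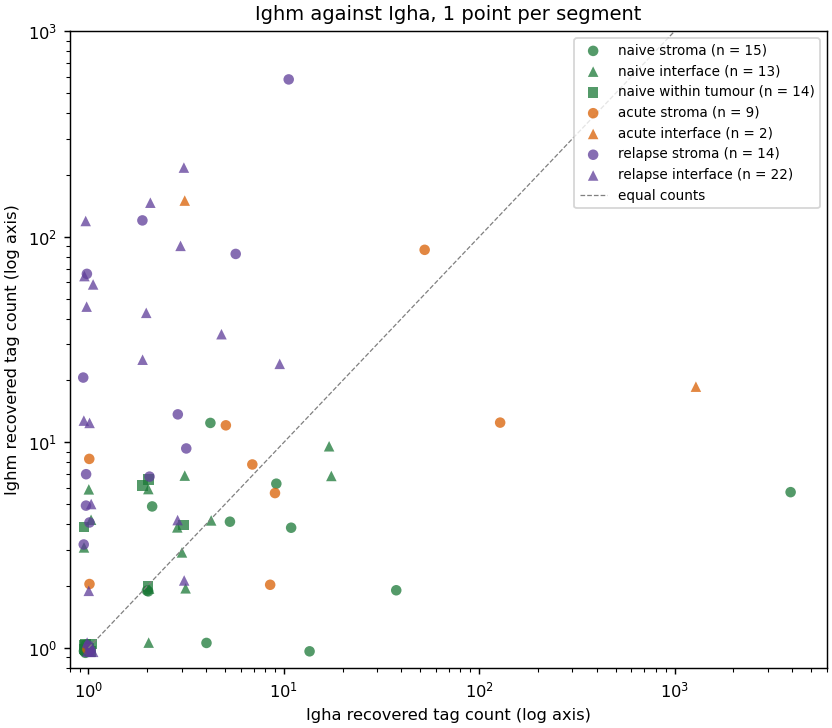
Ighm against Igha recovered counts (both log axes, points spread slightly), 1 point per segment, coloured by slide and shaped by location; the dashed line marks equal counts. Relapse segments reach 557 Ighm counts with at most 11 of Igha, and the 2 acute interface segments lie at 18 Ighm with 1362 Igha and at 156 Ighm with 3 Igha.

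Single segments carried much of the signal. Segment 5 (segments are numbered 1 to 89 in the order of the labels), in naive stroma, held 3801 Igha, 2507 Igkc and 392 Jchain counts but only 6 of Ighm. Igha made up 3.94% of its 96548 counts (exact 95% binomial interval 3.81 to 4.06, counting error only). It gave 97.9% of the Igha, 97.5% of the Igkc and 95.6% of the Jchain counts above the floor of its class. It also held 22 counts of Xbp1, 10 of Mzb1 and 10 of Pou2af1, the highest Xbp1 and Mzb1 counts of any segment. As shares of its depth these were 2.18, 0.932 and 0.932 per 10000. The highest shares over all segments were 6.66, 4.56 and 5.38, so segment 5 was not the highest by share. Its nearest neighbour, segment 4, 1503 scan units away and of similar depth (90877), held 9 counts of Igha and 1 of Igkc. The 14 other naive stroma segments had at most 38 Igha and 49 Igkc counts, both in segment 26 of another tissue piece.

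Segment 53, at the acute interface, had the same make-up: 1362 counts of Igha, 763 of Igkc, 131 of Jchain and 18 of Ighm. Igha was 2.70% of its 50391 counts (exact 95% binomial interval 2.56 to 2.85). No other segment lay within 14584 scan units of it. Segment 48, the other acute interface segment, held 156 counts of Ighm, 194 of Igkc, 18 of Jchain and 3 of Igha at nearly the same depth (50333), the reverse pattern. Segments 49 and 50, in acute stroma 2626 units apart, held 91 Ighm with 50 Igha and 12 Ighm with 121 Igha.

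Segment 85, in relapse stroma, held the most Ighm, 557 counts, with 386 of Igkc, 28 of Jchain and 11 of Igha. Ighm was 5.22% of its 10642 counts (exact 95% binomial interval 4.81 to 5.66). It gave 62.9% of the relapse stroma Ighm counts above the floor, a smaller share than the naive Igha segment gave in its class. Its nearest neighbour, segment 61 at 967 units, held 13 Ighm counts. At the relapse interface the counts were spread more widely, and the highest segment gave 23.2% of them. Counts of at least 50 for the 2 heavy chains above the floor were found in 15 segments: 1 naive, 4 acute and 10 relapse.

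On the relapse slide, high and low Ighm segments lay apart in 1 tissue piece. Tissue pieces were taken as groups of segments more than 8000 scan units from any other, which gave 4 on this slide. Within relapse piece 1 the largest gap, 6095 units (the next was 2264), divides 6 segments at lower X from 10 at higher X. The 6 held 1 to 5 Ighm counts (median 1), with 1 above the limit, and all 6 are interface segments. The 10, of which 8 are interface, held 23 to 209 (median 65), all above the limit. The Ighm share was 0 to 24.9 per 10000 in the 6 and 68.3 to 448 in the 10. Depth overlapped but was lower in the 6 (573 to 5058, median 1667) than in the 10 (1807 to 8218, median 4602). How many other targets separate the 2 groups was not counted, so the separation cannot be read as particular to Ighm. Interface segments of the same piece thus fell on both sides, and no test was made because the groups were drawn after the positions and counts had been seen.

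Igkc in the same 2 groups ran from 1 to 13 and from 11 to 151, and Igha was 1 in all 6 and 1 to 10 in the 10. The keratinocyte share had a median of 69.6 per 10000 (24.4 to 269) in the low group and 132 (77.5 to 286) in the high group, and the fibroblast share 72.4 (11.6 to 174) and 36.6 (13.7 to 55.9); their part was not tested. Relapse piece 3, with 16 segments, ran from 1 to 557 Ighm counts (median 10.5) with high and low segments side by side. The 2 segments of piece 4 held 4 and 126, and those of piece 2 held 1 and 7. Over the 36 relapse segments, Spearman's rho between a segment's Ighm count and that of its nearest neighbour was 0.57. Neighbours share a slide and differ in depth, with which the Ighm count had a rho of 0.50.

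**Figure D4:**
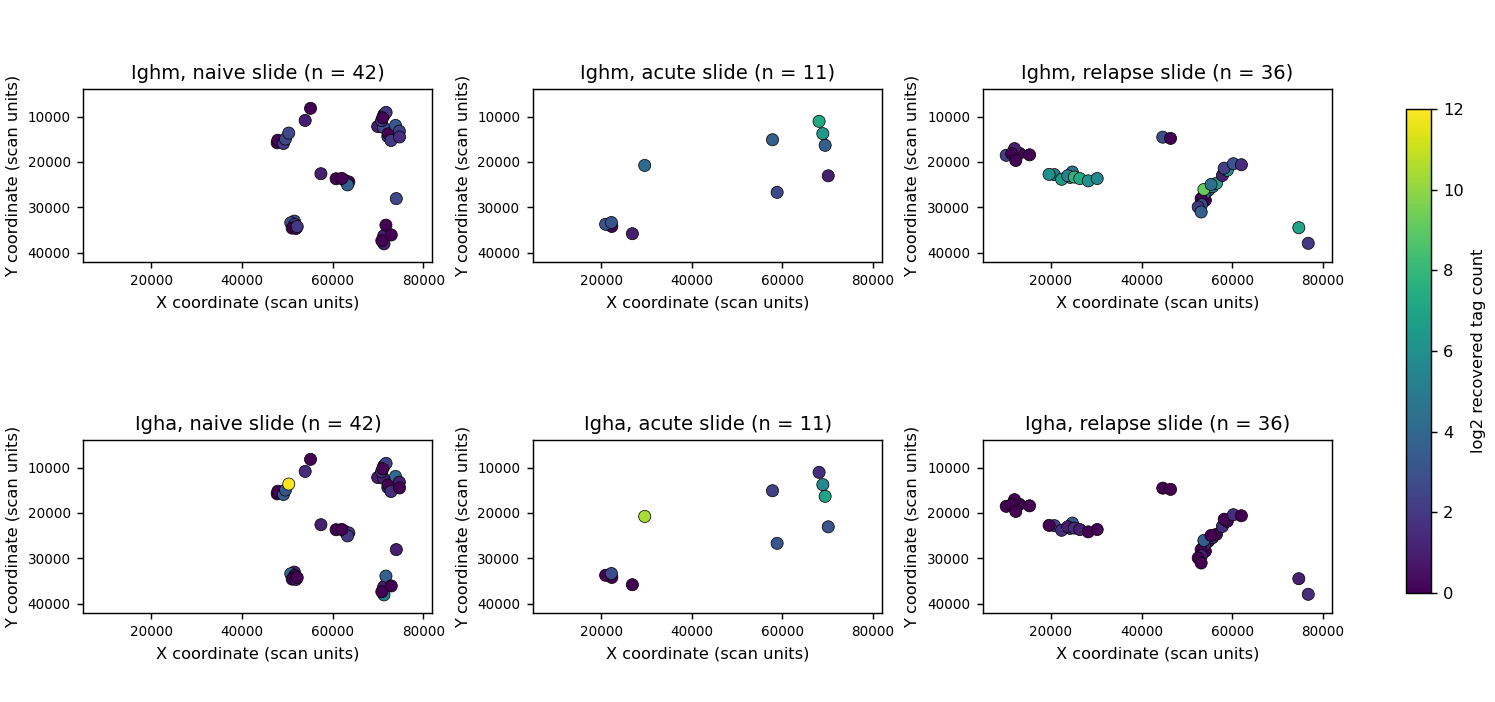
Position of every segment on its slide (X and Y in scan units, Y drawn downwards) coloured by the log2 recovered count of Ighm (top) and Igha (bottom). On the relapse slide 6 dark segments at the left edge, with 1 to 5 Ighm counts, lie across a gap from 10 with 23 to 209, while Igha is high in 1 naive and 1 acute segment.

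In relapse the light chain went with Ighm. There, Spearman's rho between Ighm and Igkc counts was 0.94 over 36 segments, and 0.92 between their shares of depth; with depth itself Ighm had 0.50. On the naive slide (42 segments) rho was 0.57 between Igha and Igkc and 0.39 between Ighm and Igkc, while with depth Igha had 0.71, Ighm 0.76 and Igkc 0.45. Over all 89 segments, after class means and log2 depth were removed, the targets most like Ighm were Igkc (r = 0.678), Lrr1 (0.416), Ighg (0.416), Krt14 (0.363) and Hspb1 (0.341). Those most like Igkc were Jchain (0.724), Ighm (0.678), Igha (0.589), Ighg (0.483) and Slpi (0.423). These values describe segments that share slides and libraries of unequal depth.

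Ratios between the chains differed by slide in the 15 segments with at least 50 heavy chain counts. In relapse, Jchain had between 1.43 and 4.84 counts per 100 heavy chain counts (median 3.24, 10 segments). In the 5 naive and acute segments it had between 9.43 and 20.6 (median 10.8), and the 2 ranges did not overlap. Among those 5, the 3 with more Igha had 9.43, 10.3 and 20.6 and the 2 with more Ighm 10.8 and 14.4. The values 20.6 and 14.4 are those of segments 50 and 49. These held 28 and 21 Jchain counts against limits of 17.3 and 15.2. Apart from segment 85, with 28 Jchain counts, the relapse segments held only 3 to 5 each. Igkc per 100 heavy chain counts overlapped, at 18.4 to 79.9 in relapse (median 58) and 55.3 to 123 in the others (median 75.6). The lowest relapse ratios were in 2 interface segments of piece 3, segment 81 at 18.4 and segment 83 at 26.7. These segments were chosen by their counts, so the ratios are given with no test.

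**Figure D5:**
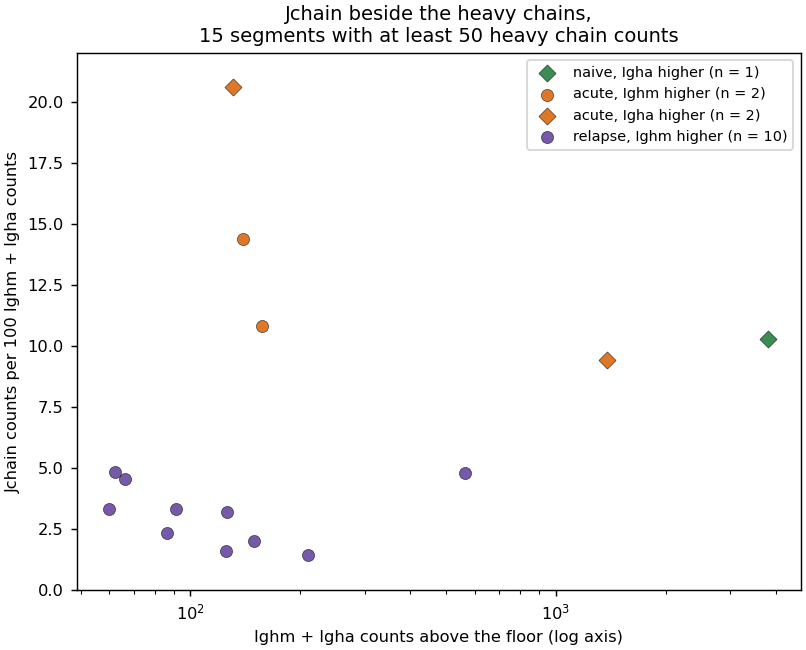
Jchain counts per 100 Ighm plus Igha counts (all above the floor) against the heavy chain counts (log axis) in the 15 segments with at least 50 of them, coloured by slide, with circles for more Ighm and diamonds for more Igha. The 10 relapse segments lie between 1.43 and 4.84 and the 5 others between 9.43 and 20.6.

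The secretory and B cell receptor members had few counts in the segments where Ighm was high, and of Xbp1, Derl3, Pou2af1 and Cd79b, the 4 tested, 0 passed limma in relapse minus naive stroma, also 0 at an unadjusted p under 0.05. Mzb1, a chaperone of IgM and IgA assembly, was at the floor in 34 of 36 relapse segments, among them all 22 at the interface, and its highest count there was 3. Derl3, part of the disposal of misfolded proteins, was at the floor in 30 of 36 relapse segments. It reached 12 counts in acute stroma, where it was above the limit in 0 of 9 segments. Xbp1 reached 22 counts on the naive slide and 4 in relapse, where depth was lower. Its pooled share was 0.757 per 10000 on the naive slide and 1.12 in relapse. Segment 85, with 557 Ighm counts and a depth of 10642, held 1 count of Mzb1, 3 of Xbp1 and 2 of Derl3. As shares of depth, Xbp1 was 1.88 per 10000 there and 2.18 in segment 5, and Derl3 0.940 and 0.311. Mzb1 was at the floor in segment 85 and at 0.932 per 10000 in segment 5. In the stroma comparison of relapse and naive, the differences were 0.06 (SE 0.228) for Xbp1 and 0.04 (SE 0.178) for Derl3.

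Pou2af1, a coactivator at immunoglobulin promoters, was at the floor in 32 of 36 relapse segments and reached 17 counts in acute stroma and 11 in naive stroma. Cd79a was at the floor in 33 of 36 relapse segments. Its highest count, 11, was in segment 50 of acute stroma, of depth 208675, where the limit was 17.3. It was above the limit in 0 of 9 acute stroma segments. Cd79b was above the limit in 8 of 13 naive interface segments, with 1 to 9 counts, and its difference from naive stroma was 0.25 (SE 0.175, limma adjusted p = 0.387). In relapse interface Cd79b was above the limit in 0 of 22 segments, with at most 2 counts. In relapse minus naive interface Pou2af1 was at -0.20 (SE 0.184) and Cd79b at -0.18 (SE 0.162). With counts above the floor scaled to the same total, Cd79b was called lower there, at -0.56 (SE 0.117, limma adjusted p = 0.00141). With no filter on low values, Cd79a was called higher in that comparison, at 0.70 (SE 0.158, limma adjusted p = 0.000432), with 20 of 22 relapse and 11 of 13 naive interface segments at the floor and a median normalised signal of 3.74 against 1.87. Pooled over interface segments, Cd79b was 0.0985 per 10000 in relapse and 0.898 in naive, and Pou2af1 0.0985 and 1.03. Cd79a went the other way, at 0.295 and 0.0962. At the depth of the relapse slide a low level of these genes could be missed in a single segment. The part of depth in their low counts was not tested.

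Other B cell and plasma cell genes gave few calls. The B cell list had 3 of 19 genes tested, and the only call in relapse minus naive stroma was Cd74, the invariant chain of MHC class II, which fell by 1.34 (SE 0.284, limma adjusted p = 0.00114). Ms4a1, a B cell surface gene, was above the limit in 1 of 36 relapse segments. The list's summed share had a median of 4.55 per 10000 in relapse stroma (0 to 8.82, with 3 genes at the floor in every segment) and 9.23 in naive stroma (3.12 to 19.1). Of the 16 plasma cell genes 5 were tested, and 0 passed limma in relapse minus naive in stroma or at the interface, with 1 in each at an unadjusted p under 0.05. The plasma cell surface genes Sdc1 and Tnfrsf17 were above the limit in 1 and 4 of 36 relapse segments. In naive stroma, interface and within tumour, Sdc1 was above it in 0 of 15, 2 of 13 and 0 of 14 segments. Tnfrsf17 was above it in 2, 1 and 0 of the same segments, which were deeper by median than the relapse slide. The list's share had a median of 5.69 per 10000 in relapse stroma (0 to 9.80) and 7.99 in naive stroma (0 to 9.60).

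Genes of the secretory stress response had 6 of 14 tested, and 2 rose in relapse minus naive interface: Hspa5, the main chaperone of the endoplasmic reticulum, by 0.73 (SE 0.196, limma adjusted p = 0.0123) and Atf4, a stress transcription factor, by 0.63 (SE 0.173, limma adjusted p = 0.0151), where the median of all targets was 0.22. Hspa5 was above the limit in 2 of 22 relapse and 2 of 13 naive interface segments, and Atf4 in 1 of 22 and 2 of 13. As for Jchain and Xbp1, 1 count is worth a signal of 3.74 in the median relapse interface segment and 1.87 in the median naive one. In stroma 0 of the 6 passed by limma (1 at an unadjusted p under 0.05), and Hspa5 was at -0.44 (SE 0.208). Of the 5 tested genes of immunoglobulin transport and B cell factors, Cxcl12, a chemokine that draws plasma cells, fell by 1.05 in relapse minus naive stroma (SE 0.252, limma adjusted p = 0.00694). It was also lower in naive interface than in naive stroma, at -1.38 (SE 0.257, limma adjusted p = 2.97e-05), with Cd74 at -1.64 (SE 0.29, limma adjusted p = 1.27e-05). There Hspa5 fell by 0.95, Hsp90b1 by 0.84 and Edem1 by 0.69. Ighg, a heavy chain target in none of the lists, named through its likeness to Ighm, reached 26 counts in segment 53 and at most 9 at the relapse interface. By share of depth the order was reversed, at 4.96 per 10000 in segment 53 and at most 26.7 at the relapse interface. Its pooled share was 2.95 per 10000 at the relapse interface, 2.98 at the acute and 0.513 at the naive interface. Iglc1, a lambda light chain, reached 42 counts and was above the limit in 14 segments, 2 of them in relapse.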

How the data were processed

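GeoMx tags were measured in 89 segments of mouse squamous cell carcinoma that the labels call neutrophil. The deposited matrix holds signal per target, which the authors divided by an upper-quartile factor; the factor and the SD of the negative probes are deposited as ratios. Signal times factor was taken as the count: 99.986% of values were whole within 1e-06, and 3 targets held others. The build mm10 and Seurat are named in the submitters' processing notes with no role; aligner and counter are not given in the sources used here. The floor, 1 count, was subtracted for depth and shares. For the limit of quantitation, each segment's negative-probe geometric mean was multiplied by the square of its geometric SD, with a minimum of 2 counts.

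limma 3.58.1 in R 4.3.3 (lmFit, eBayes with trend, 1 mean per class, all classes in the fit, two-sided) was run on log2(signal + 1), with Benjamini-Hochberg adjustment over 5087 targets at 0.05, and tested on simulated data. The planned tests on counts (edgeR, DESeq2) were not run, since the deposited values are normalised signal. Python 3.11.15 made descriptions and figures. Precision is limited by depth (573 to 208675 counts). Members passing the test are named, list genes passing it up to 5 a comparison, and the 5 targets most like Ighm and Igkc by the correlation of residuals. Members and lists were chosen with earlier results of these data known. Alternatives covered pseudocount, filter, scaling, depth, plate, tissue piece, shallow segments and left-out pieces. The negative-probe target was left out.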

Additional observations from a re-analysis of the deposited data

Results flagged for a closer look

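Among the 9 acute stroma segments, 1 segment stood far from the others in the recovered counts of 4 members, by the ratio of its gap to the nearest other segment over the whole range. For Ighm the ratio was 0.878, with 91 counts in segment 49 and 12 in the next. For Igha it was 0.592, with 121 in segment 50 and 50 in the next. Pou2af1 had a ratio of 0.50 (17 counts in segment 49, next 9) and Cd79a of 0.80 (11 in segment 50, next 3). On the log2 scale of the signal no member was marked in this class. Segments 49 and 50 were also the deepest of their class, at 149120 and 208675 counts. For normally spread values chance marks about 1 group in 20, and these counts are skewed.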

How the results depend on the processing

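With plate as a covariate, relapse minus naive kept 0 member calls in stroma (from 1) and 0 at the interface (from 4). With the tissue piece as a random block (correlation 0.0442), 2 remained at the interface, Ighm and Igkc. With log2 depth as a covariate, relapse minus naive stroma had 2 calls, Ighm and Igkc, and naive within tumour minus stroma 0 (from 1). The latter also had 0 calls with no filter on low values, without segments under 2000 counts, and with only the classes compared. With no filter, relapse minus acute stroma had 2 calls, Mzb1 and Ighm, and relapse minus naive interface 5, with Cd79a added. With the same total, the latter had 3, Ighm, Igkc and, lower, Cd79b. Within plate H, the only relapse minus acute stroma call was Cd79b. Over tissue pieces and single segments left out, relapse minus naive had 1 to 2 calls in stroma and 0 to 4 at the interface, naive interface minus stroma 0 to 2, within tumour minus stroma 0 to 1, and the interaction 0 to 1. Acute minus naive stroma and relapse interface minus stroma kept 0 and relapse minus acute stroma 1. With only segments where both isotypes were above the limit, the log2 ratio of Ighm to Igha was 0.42 in place of 1.70 within the naive tumour (1 segment), 2.77 in place of 4.08 in relapse interface and 0 in place of 0.42 in naive interface. The causes were not tested. Of the values of single members under the alternatives, 80 kept direction and call, 26 lost the call and 0 reversed.

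Leaving out the segments with the most Igha and Ighm counts was chosen after seeing the data. The planned edgeR and DESeq2 fits were not run. No paired analysis was possible because the labels give no replicate numbers shared between classes; tissue pieces that hold several classes entered only as a random block. Depth limits the low members most: at the floor in most relapse segments, they could not be ranked.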
